A study of Mus musculus with 2 samples.

Results

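Aggrecan, versican and the small leucine-rich proteoglycans form a group of 10 genes, Acan, Vcan, Bgn, Dcn, Fmod, Lum, Ogn, Epyc, Prelp and Aspn, chosen by gene symbol for the structural role of their products in cartilage matrix. Probes were matched to genes by RefSeq accession, which gave 9 of the 10 among 20433 genes named on the array. Prelp had no probe under the accessions used. The 9 genes had 11 probes, of which Vcan held 3, and each of the 11 was a single spot. RNA came from 2 stable lines of ATDC5 cells, a mouse line that the labels call a chondrocyte line, which carry a lentiviral transgene. The control line overexpressed GFP, a fluorescent protein, per its label. The second line overexpressed HES1, a basic helix-loop-helix repressor and target of Notch signalling, per its label. Total RNA was taken from each line after 3 days of monolayer culture in 60 mm dishes, and each RNA was hybridised to 1 single-colour Agilent mouse array. The promoter and species of the transgenes, and whether a line is 1 clone, are not given in the sources used here.

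Proteoglycans are core proteins that carry sulfated sugar chains. Aggrecan is the large chondroitin and keratan sulfate proteoglycan that binds hyaluronan and gives cartilage its resistance to compression, while versican is its relative in loose and embryonic matrix and is prominent in precartilage mesenchyme. Small leucine-rich proteoglycans have curved cores built of leucine-rich repeats. They bind collagen fibrils and control their diameter and spacing, and several also bind growth factors such as TGF-beta.

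With 1 array per group there was no replicate check, and no difference below has a p-value. Signals are the scanner's processed spot intensities after each array was scaled to a 75th percentile of 1057.2, and they can be set side by side for a probe but not between probes. A difference is the log2 signal of the HES1 line minus that of the GFP line, and a gene was called higher or lower at a difference of at least 2-fold. The error given with a difference is the scanner software's own error model, which covers the spot and not the culture. Its median was 0.204 on the log2 scale over genes measured on both arrays. The 235 probes printed at least 8 times had a median SD between spots of 0.068. Both arrays lay on 1 slide, and 54.6% and 56.6% of spots were well above background on the GFP and HES1 arrays. The targeted gene could not be followed, since the 1 Hes1 probe stayed near background, and was not called well above it, in the GFP line (10.2) and the HES1 line (10.3).

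Promoter sequence is shown for Acan, Vcan, Aspn and Ogn because Vcan, Aspn and Ogn had the largest differences among the 10 genes and Acan is the reference cartilage member. The windows hold the 250 bases before the annotated start, 5′ to 3′, from RefSeq with build GRCm38.p6, in which 8 of the 10 genes had an entry. Capitals mark matches on either strand to the N-box CACNAG and the class C or E-box form CACGNG, which HES1 is known to bind, and to the TATA box TATAAA. The capitals in the Acan window match the N-box and the class C or E-box form at once, on the reverse strand, and the TATA matches of Ogn overlap each other on opposite strands. The interferon-stimulated response element and the gamma-activated site TTCNNNGAA were also searched on both strands.
Acan, chr7:79052976-79053225 on the forward strand: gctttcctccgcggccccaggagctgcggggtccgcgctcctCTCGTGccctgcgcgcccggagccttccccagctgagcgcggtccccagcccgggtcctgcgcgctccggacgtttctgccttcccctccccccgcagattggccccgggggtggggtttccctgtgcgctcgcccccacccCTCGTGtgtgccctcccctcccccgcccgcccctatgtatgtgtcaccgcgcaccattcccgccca
Vcan, chr13:89742513-89742762 on the reverse strand: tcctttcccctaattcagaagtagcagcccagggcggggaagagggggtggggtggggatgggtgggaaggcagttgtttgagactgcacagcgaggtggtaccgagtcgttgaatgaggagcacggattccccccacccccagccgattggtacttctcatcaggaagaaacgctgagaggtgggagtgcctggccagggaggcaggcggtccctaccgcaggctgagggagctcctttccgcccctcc
Aspn, chr13:49544193-49544442 on the forward strand: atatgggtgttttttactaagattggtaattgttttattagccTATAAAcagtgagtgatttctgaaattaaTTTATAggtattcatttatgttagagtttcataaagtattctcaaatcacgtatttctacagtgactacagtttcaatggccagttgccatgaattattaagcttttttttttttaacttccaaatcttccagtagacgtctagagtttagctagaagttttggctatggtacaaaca
Ogn, chr13:49607765-49608014 on the forward strand: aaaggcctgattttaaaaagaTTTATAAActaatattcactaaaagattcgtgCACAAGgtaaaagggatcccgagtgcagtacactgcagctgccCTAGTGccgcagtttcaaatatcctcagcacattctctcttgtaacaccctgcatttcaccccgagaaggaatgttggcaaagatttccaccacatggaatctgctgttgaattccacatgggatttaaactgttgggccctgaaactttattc
CACNAG was present in the windows of Acan, Bgn, Fmod and Ogn, and in 36.7% of 32851 annotated windows of the same length. CACGNG was present in that of Acan among the members, against 23.5% of all windows. The Vcan window held none of the 5 motifs. TATAAA was present in Aspn and Ogn, against 12.4% of all windows, and the matches lay between 178 and 229 bases before the start. The interferon-stimulated response element and TTCNNNGAA, which 2.98% and 7.02% of all windows held, were in no member's window. These matches describe letters in the window and are no measure of binding.

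Of the 9 genes with a probe, 8 were well above background on both arrays and Epyc was on neither. Of the 8, 1 was at least 2-fold higher in the HES1 line, 0 were lower and 7 lay within 2-fold. Among the 14273 genes measured on at least 1 array, the higher share was 11.1% and the lower share 4.95%, or 9.49% and 4.47% when genes seen on 1 array are counted by their bounds. The median difference of the 8 was 0.26, against -0.06 for all measured genes, with 5 positive and 3 negative, where 45.0% of all measured genes were positive. The choice of probe for Vcan did not alter these counts, as both of its measured probes were past 2-fold.

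**Figure D1:**
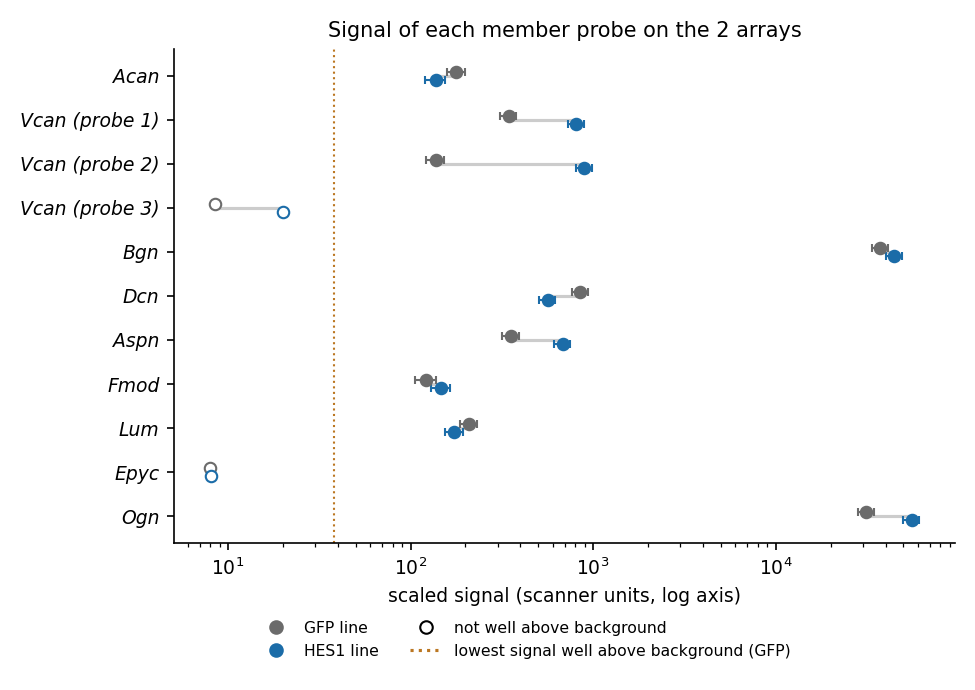
Scaled signal of each of the 11 probes in the GFP line (grey) and the HES1 line (blue) on a log axis, with bars for the scanner error and open symbols for probes not well above background. The 2 measured Vcan probes and those of Aspn and Ogn sit to the right in the HES1 line, and Dcn sits to the left; signals are not comparable between genes.

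Acan and Vcan, the 2 large members that bind hyaluronan, had differences of opposite sign, but that of Acan was not resolved from 0. Acan had a signal of 178 in the GFP line and 137 in the HES1 line. That difference of -0.37 was 1.5 times its scanner error of 0.24, and 25.3% of all measured genes had a more negative one. Vcan had a signal of 345 in the GFP line and 808 in the HES1 line by its brightest probe, designed to NM_172955, which is 2.34-fold higher. This difference of 1.23 had an error of 0.21, and it was 0.89, under 2-fold, after a normexp background correction.

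A second Vcan probe, designed to another transcript of the gene (NM_001081249), read 137 in the GFP line and 893 in the HES1 line. It was 6.54-fold higher, a difference of 2.71 with an error of 0.22, and 3.57% of measured genes had a larger one. The 2 probes therefore had the same direction but unlike sizes. The gap between them was 1.48 on the log2 scale, 4.9 times its scanner error of 0.30. The third Vcan probe, also designed to NM_172955, was called well above background on neither array, at 8.5 and 20.0. The accessions of Vcan differ in their exons, and which splice forms each probe reads cannot be told from the files used here. Set against Acan on the same arrays, the Vcan signal of the HES1 line was 3.04-fold higher by the brightest probe and 8.48-fold higher by the second. A scaling factor between arrays cancels in these ratios, but the background correction does not: under normexp Acan was at -0.36 and the Vcan probes at 0.89 and 1.87.

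**Figure D2:**
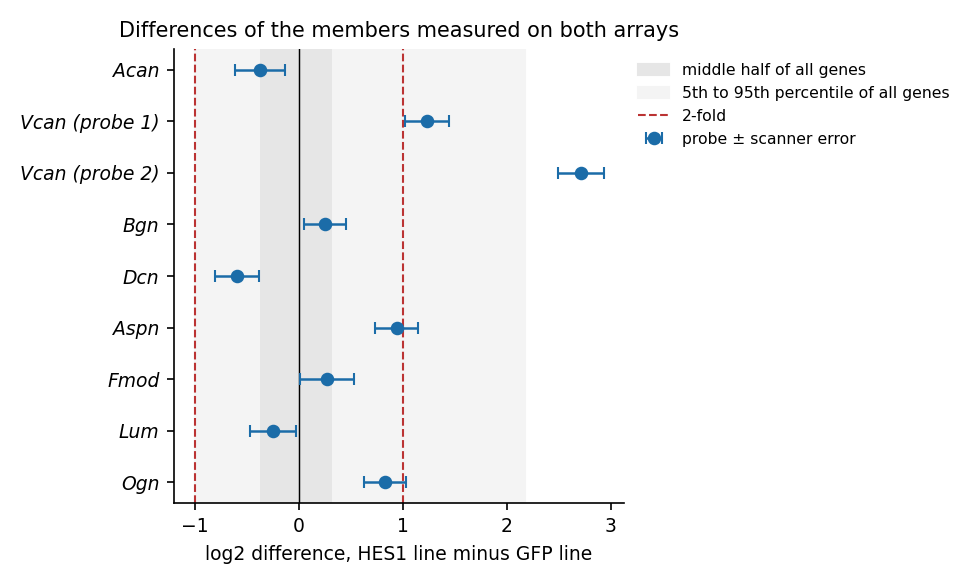
Log2 difference (HES1 line minus GFP line) of each probe measured on both arrays, with bars for the scanner error, over shading for the spread of the 14273 measured genes. Vcan lies past the 2-fold line by each probe, Aspn at 0.94 and Ogn at 0.83 lie just inside it, and Dcn at -0.59 is the lowest.

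The class I members Bgn, Dcn and Aspn, which share the closest core sequences, did not go together. Bgn encodes biglycan, which carries chondroitin or dermatan sulfate chains and binds collagen and growth factors. Its signal was 37419 in the GFP line and 44570 in the HES1 line, and the difference of 0.25 was near its error of 0.20. Dcn encodes decorin, which limits the lateral growth of collagen fibrils and binds TGF-beta. It read 849 in the GFP line and 563 in the HES1 line, a 1.51-fold lower signal and a difference of -0.59 with an error of 0.21.

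Aspn encodes asporin, a relative of decorin with an aspartate-rich stretch that binds collagen and TGF-beta. It read 355 in the GFP line and 682 in the HES1 line, or 1.92-fold higher. The difference of 0.94 had an error of 0.21, stayed under 2-fold, and was exceeded by that of 11.7% of measured genes. The gap between Aspn and Dcn was 1.54 on the log2 scale, 5.2 times its error. The gap between Bgn and Dcn was 0.84, and that between Aspn and Bgn 0.69, at 2.9 and 2.4 times their errors.

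The class II members Fmod and Lum had small differences of opposite sign. Fmod encodes fibromodulin, a keratan sulfate proteoglycan that takes part in fibril assembly and collagen cross-linking. It read 122 in the GFP line and 147 in the HES1 line, a difference of 0.27 that was about as large as its error of 0.26. The sign turned to -0.07 under a normexp background correction of the median spot signals. Lum encodes lumican, which competes with fibromodulin for sites on collagen. It read 208 and 174, a difference of -0.25 with an error of 0.22. The gap between Fmod and Lum was 0.52, or 1.5 times its error. The differences of Fmod and Lum were thus 1.0 and 1.1 times their own errors.

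The class III members were Ogn and Epyc. Ogn encodes osteoglycin, also called mimecan, a small keratan sulfate proteoglycan of bone, tendon and cornea. It read 31362 in the GFP line and 55670 in the HES1 line, or 1.78-fold higher. Its difference of 0.83 was 4.1 times its error, and 13.1% of measured genes had a larger one. Epyc encodes epiphycan, a dermatan sulfate proteoglycan of growth plate cartilage. It read 7.93 and 8.08 and was called well above background on neither array, so no fold is given.

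At a 1.5-fold cut-off, Vcan, Aspn and Ogn were the 3 members called higher and Dcn the 1 called lower, where 17.4% of all measured genes were higher and 14.6% lower. Their spots lay in different parts of the array. The spots within 10 rows and columns of each member probe had median differences from -0.16 to -0.04, over 85 to 218 spots per probe. The median of all measured genes was -0.06. A median over so many spots cannot show a defect at the 1 spot of a member probe, and such a defect was not tested. All of these genes are read from RNA of a whole culture, in which fewer cells of a type and less RNA per cell cannot be told apart.

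Several small leucine-rich genes lie in clusters on chromosomes 13, 10 and 1, and the measured genes of the chromosome 13 cluster had differences of both signs. In the cluster Ecm2, Aspn, Omd, Ogn on chromosome 13, the 4 genes lay next to each other among protein-coding genes. Ecm2, which encodes a matrix protein with leucine-rich repeats, read 91.1 and 112, a difference of 0.29 with an error of 0.28. Omd encodes osteomodulin, a keratan sulfate proteoglycan of bone, and lies between Aspn and Ogn. It read 13942 in the GFP line and 10950 in the HES1 line, a difference of -0.35 with an error of 0.20.

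Aspn and Ogn thus had positive differences on either side of a neighbour with a negative one. That neighbour, Omd, at -0.35 with an error of 0.20, lay between the 25th and 75th percentiles of all measured genes (-0.38 and 0.33). The gap between Ogn and Omd was 1.18, 4.1 times its error, and that between Aspn and Omd was 1.29, 4.4 times its error. Ogn and Aspn themselves differed by -0.12, less than the error of 0.29. On chromosome 10, Dcn and Lum had negative differences, while Kera, which encodes the corneal proteoglycan keratocan, was well above background on neither array (9.36 and 10.4), as was the case for Epyc. On chromosome 1, Optc, which encodes opticin, had a difference of 0.06 with an error of 0.35, next to Prelp and Fmod. The genes flanking that cluster, Atp2b4 and Btg2, had differences of 0.57 and 0.75. All 4 measured genes there were positive, but Optc lay within its error. Fmod, at 0.27 with an error of 0.26, was at -0.07 under normexp. Of the genes flanking the other clusters only Cenpp, on chromosome 13, was measured, and its difference was -0.85.

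**Figure D3:**
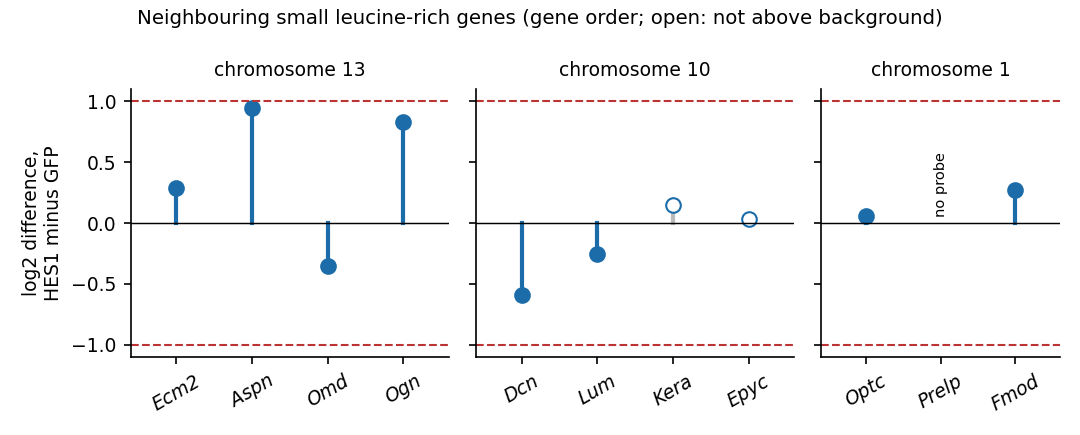
Log2 difference (HES1 line minus GFP line) of small leucine-rich genes in their order along chromosomes 13, 10 and 1, with open symbols for genes not well above background. Aspn at 0.94 and Ogn at 0.83 flank Omd at -0.35, and Dcn and Lum are both below 0.

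Among the other small leucine-rich repeat genes, 10 of 11 were measured, with 2 at least 2-fold higher, 0 lower and a median of 0.0. Over all measured genes 11.1% were higher, 4.95% lower and 55.0% negative, the shares for this list and those below. The 2 higher genes were Nyx and Nepn, both dim in the GFP line and measured in the HES1 line alone. Nyx encodes nyctalopin, a leucine-rich protein best known from retinal bipolar cells. Its signals were 32.1 and 1130, which gives a difference of at least 29.6-fold when the GFP value is set to the lowest signal well above background. Nepn encodes nephrocan, a secreted protein with leucine-rich repeats. Its signals were 27.5 and 123, or at least 3.22-fold higher. These bounds hold for the processed signals: under normexp the log2 differences were 2.96 for Nyx and 0.61, under 2-fold, for Nepn.

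The genes whose products assemble with aggrecan and versican had differences of both signs. Of 19 listed, 11 were measured, 1 was higher, 2 were lower (1 by bounds), and the median was 0.21. Fbln2 encodes fibulin-2, a glycoprotein that binds the lectin domains of aggrecan and versican. It read 1293 and 4002, or 3.09-fold higher. Fbln1, whose product fibulin-1 binds the same domains, was not well above background in the HES1 line and was at least 1.71-fold lower (66.5 and 23.8). Matn2, which encodes the filament-forming matrix protein matrilin-2, was 2.01-fold lower at 20809 and 10375. Both lower calls rest on the processing, as Fbln1 was at -0.40 under normexp and Matn2 at -0.99 after quantile normalization and -0.85 after loess.

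Hapln1 encodes the link protein that locks aggrecan onto hyaluronan. Neither array called it well above background, at 11.1 and 16.0. Has2, the main hyaluronan synthase of connective tissue, read 305 and 550, a difference of 0.85 with an error of 0.21. Cd44, the hyaluronan receptor, had differences of 0.64, 0.85, 0.66 and 0.69 by its 4 probes. These hyaluronan genes stayed within 2-fold.

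Of the core proteins of other proteoglycans, 18 were measured and 12 were negative, where 55.0% of all measured genes were, and the median was -0.50. With dim probes kept in, this became -0.07. Called genes were 1 higher and 2 lower. Agrn, which encodes the basement membrane proteoglycan agrin, was 3.26-fold higher at 5041 and 16440, while its second probe lay near background (40.7 and 47.1). Gpc1 and Gpc2 encode glypicans, heparan sulfate proteoglycans held to the membrane by a lipid anchor. Gpc1 was 2.16-fold lower at 39996 and 18532, and Gpc2 was 2.02-fold lower at 498 and 247. After loess they were at -0.94 and -0.87, which left 0 lower.

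Sugar chains are built on these cores by a shared route: a linker of sugars on serine, chain extension, and sulfation from an activated sulfate donor. Genes for sulfate and sugar nucleotide supply had a median of -0.47 over 10 measured, with 9 negative, 2 at least 2-fold lower and 0 higher, where 55.0% of all measured genes were negative and 4.95% lower. Slc26a2 encodes the sulfate transporter whose loss causes chondrodysplasias in humans. It read 582 in the GFP line and 239 in the HES1 line, or 2.44-fold lower, with an error of 0.21 on the difference of -1.28. Papss1 encodes an enzyme that makes the sulfate donor PAPS. It was 2.01-fold lower at 3492 and 1740, and between -0.99 and -0.87 after quantile, median, loess and normexp processing, which left 1 lower gene in the list. Bpnt2, which encodes a Golgi phosphatase that clears the by-product of sulfation, lay just within 2-fold at 33147 and 17008 (difference -0.96).

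The 7 linker enzymes were all within 2-fold, with a median of -0.38 and 5 negative. The largest was that of Xylt2, a xylosyltransferase that starts the linker, at -0.77, while its second probe gave -0.14. Chondroitin and dermatan sulfate enzymes had a median of -0.04 over 16 measured, with 0 higher and 1 lower. The 1 was Csgalnact1, which encodes the enzyme that adds the first N-acetylgalactosamine of a chondroitin chain. It read 1206 and 562, or 2.15-fold lower, and was at -0.95 after loess and under normexp. Chsy1, a chondroitin polymerase, had differences of -0.86 and -0.90 by its 2 probes. Keratan sulfate enzymes had a median of -0.50 over 9 measured, with 0 higher and 1 lower, the sulfotransferase gene Chst1 (6148 and 3025, or 2.03-fold lower, and -0.89 after loess).

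**Figure D4:**
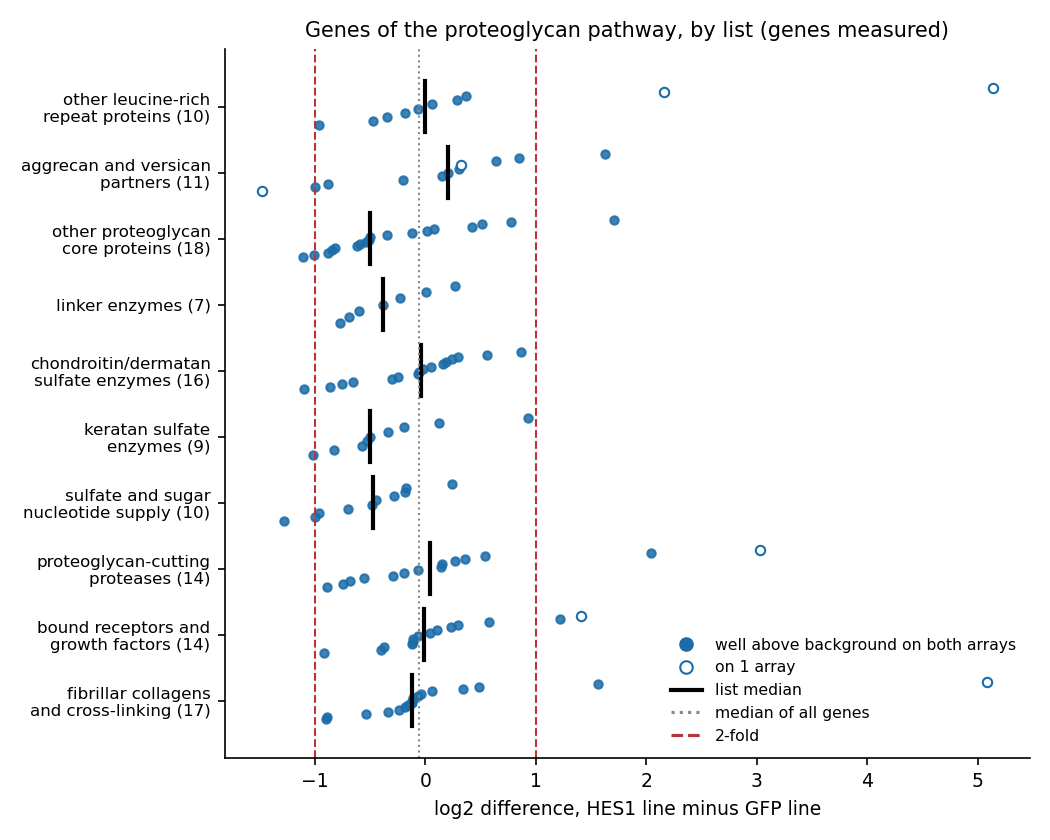
Log2 difference (HES1 line minus GFP line) of every measured gene in the 10 lists of the proteoglycan pathway, with list medians as black bars, open symbols for genes on 1 array and dashed lines at 2-fold. The sulfate and sugar nucleotide supply, keratan sulfate, linker and other core protein lists have medians between -0.50 and -0.38. Nyx, Col5a3, Mmp13, Nepn and Mmp9 are past 4-fold by the measured difference, higher in the HES1 line, and all but Mmp9 were on 1 array. By bounds Nepn and Mmp13 were at least 3.22-fold and 3.49-fold higher, and under normexp Nepn, Mmp13 and Mmp9 were under 2-fold. Over all measured genes 997 were higher and 178 lower at 3-fold.

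Among 14 measured proteases and inhibitors that act on these cores, 2 were higher and 0 lower, with a median of 0.04. Mmp13, a collagenase that also cuts aggrecan, was called well above background in the HES1 line alone and was at least 3.49-fold higher (16.3 and 133). Mmp9, a gelatinase, was 4.11-fold higher at 48.1 and 197. Under normexp each was at 0.84, which left 0 higher in this list. The aggrecanase gene Adamts5 had differences of 0.15 and 0.32 by its 2 probes, with errors of 0.22 and 0.27. Of 14 measured growth factors and receptors bound by small leucine-rich proteoglycans, 2 were higher (1 by bounds) and 0 lower, with a median of -0.01. Tlr2, an innate immune receptor that soluble biglycan engages, was 2.33-fold higher at 4940 and 11487. Egfr, a receptor bound by decorin, was at least 1.30-fold higher (18.7 and 49.7), and its 2 other probes were called well above background on neither array. Under normexp Egfr was at 0.26.

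The fibrillar collagens and cross-linking genes, to which these proteoglycans bind, had a median of -0.12 over 17 measured, with 2 higher and 0 lower. Col5a3 encodes a type V collagen chain and was called well above background in the HES1 line alone. Its signals of 42.0 and 1424 gave a measured ratio of 33.9-fold, a log2 difference of 5.08 with an error of 0.40. Its dim GFP signal lay above the lowest signal well above background, so this ratio is no lower limit. Under normexp the log2 difference was 2.99. Plod3, which encodes a lysyl hydroxylase that prepares collagen for cross-linking, was 2.95-fold higher at 14295 and 42230. Col2a1, the main cartilage collagen and the partner of aggrecan in cartilage, read 13796 and 7379, a difference of -0.90. Over all 10 lists together, 126 genes were measured, of which 10 were higher and 8 lower, with a median of -0.12. Over all measured genes 11.1% were higher and 4.95% lower. The split depended on scaling: it was 12 and 2 after a loess fit and 10 and 4 when arrays were scaled on the median of their shared probes. The 2 lower after loess were Slc26a2 at -1.14 and Fbln1, whose measured difference of -1.54 includes a HES1 signal not well above background.

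As a check of the labelled cell type, 13 of 17 chondrocyte markers were measured, with 1 higher, 3 lower (2 by bounds) and a median of -0.29. Of the 13, 11 were negative. Over all measured genes 11.1% were higher, 4.95% lower and 55.0% negative, the shares for each marker list here. The 1 higher was Col9a3, called well above background in the HES1 line alone and at least 7.07-fold higher (25.2 and 270). The 3 lower were Ucma (442 and 172), Cytl1 (141 and 59.7) and Sox6 (57.7 and 28.1). Sox9, the transcription factor that specifies chondrocytes, read 3683 and 3227, while Matn1, Matn3, Snorc and Hapln1 were called well above background on neither array. The summed signal of the measured chondrocyte markers was 55850 in the GFP line and 44720 in the HES1 line. Most of it came from Sox5 (34961 and 31887) and Col2a1 (13796 and 7379). Of 8 fibroblast or mesenchymal markers, the type in which versican and decorin are abundant, all were measured, 1 was higher and 0 were lower, with a median of 0.13, 3 negative and summed signals of 527600 and 436600, most of it S100a4 (474981 and 368100). The 1 that was higher was Ly6a, at 1279 and 27050. The osteoblast list had 7 measured genes, all negative, with a median of -0.97, where 55.0% of all measured genes were negative. Of the 7, 3 were lower and 0 higher, where 4.95% and 11.1% of all measured genes were. The 3 were Ibsp, Sp7 and Phex, and the summed signals of 243300 and 206800 were mostly Col1a1 (219155 and 193317). The tendon list had 1 of 3 higher, Egr1 at 2247 and 25177, and 1 lower, Scx at 17021 and 4838, with a median of -0.02. Its summed signals of 20410 and 31140 follow those 2 genes. Of the macrophage list, 4 of 8 were measured, with 0 higher, 1 lower and summed signals of 50210 and 25340. The 1 was Itgam, at 47669 and 22759. The 2 other Itgam probes differed by 0.47 and 0.25, the other direction. Csf1r, by its brightest probe, and Cd14 were well above background on both arrays, at 1978 and 2030 and at 542 and 499. Ptprc was called well above background in the HES1 line alone, and Tyrobp, Lyz2 and Adgre1 on neither array. The part of these marker differences in the results for the proteoglycans was not tested.

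**Figure D5:**
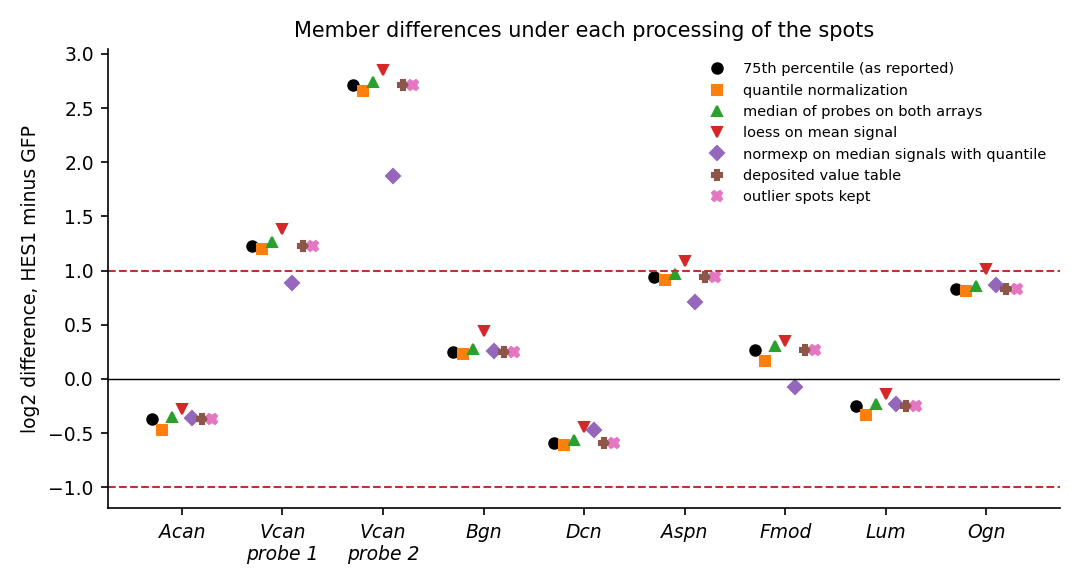
Log2 difference (HES1 line minus GFP line) of each member probe measured on both arrays under 7 ways of processing the spots, with dashed lines at 2-fold. The probes keep their sign except Fmod under normexp (-0.07), and normexp draws the Vcan probes to 0.89 and 1.87.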

How the data were processed

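RNA of 2 ATDC5 lines was read on 2 single-colour Agilent arrays annotated on mm9 (per the file headers). Each deposited scanner file gives spot intensity from Agilent Feature Extraction 10.10.1.1 (version per the submitters' processing notes), which subtracted background and detrended it, per the file headers. A second deposited table holds intensity on a linear scale, which matched that signal times 1.45 (GFP) and 1.53 (HES1).

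Processed signals were put on the log2 scale and centred on the 75th percentile of the 59305 non-control spots of the array. Spots with an outlier flag on either array (1053) were left out, spots of a probe were averaged, and 54948 of 55681 probes remained; no spot was saturated. Accessions were named through a RefSeq table of GRCm38.p6 (26869 probes, 48.9%). The brightest probe well above background on at least 1 array stood for a gene. For a gene seen on 1 array, a bound was set against the higher of its dim signal and the array's lowest well-above-background signal (38.1 GFP, 39.0 HES1). Without replicates no test was possible, and precision is limited by how few arrays there are.

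The members and lists were chosen with earlier results of these data known. Named genes were the members, Col2a1, Sox9, Hapln1, Adamts5, Has2, Omd, Ecm2, Kera and Optc. For each list they were also the largest differences past 2-fold, at most 4, or the largest one if none passed. Cd44, Bpnt2, Chsy1 and Ly6a were chosen after their values were seen. So were the genes flanking the clusters and marker genes named in the cell type check. A pair of arrays gives 1 difference per gene, so no genes of like pattern were sought. The smooth muscle, adipocyte and hypertrophic chondrocyte lists had 0 of 3, 0 of 3 and 1 of 7 measured genes at least 2-fold higher, and 0, 0 and 2 lower. The alternatives were other scalings, normexp (limma 3.58.1, offset 50) on median spot and background signals, deposited values, outlier spots kept, other filters on dim probes, bounds, the median over probes, and thresholds of 1.5-fold and 3-fold. The scripts, in Python 3.11.15 and R 4.3.3, were tested on simulated data.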

Additional observations from a re-analysis of the deposited data

How the results depend on the processing

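No paired analysis was possible because each group has 1 array. The 9 member probes measured on both arrays kept their direction under all 6 alternatives for processing the spots, except Fmod, at -0.07 under normexp. Normexp with its offset, which compresses low signals, moved Vcan to 0.89 and 1.87 by its 2 probes and Aspn to 0.71, which left 0 members past 2-fold by the brightest probe. A loess fit raised the median of all genes from -0.06 to 0.08 and put 3 members past 2-fold (Vcan, Aspn and Ogn). At 1.5-fold 3 members were higher and 1 lower, and at 3-fold 0 were higher, each by the brightest probe. The second Vcan probe was 6.54-fold higher.

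For all genes, 1582 higher and 707 lower became 849 and 340 under normexp, 2480 and 2084 at 1.5-fold, 997 and 178 at 3-fold, and 920 and 577 where both arrays had to be well above background. Without a filter on dim probes 2337 genes were higher of all those named. For the 10 pathway lists together, 10 higher and 8 lower became 6 and 3 under normexp. Lower genes were 4 with scaling on the median of shared probes, 2 after loess, 30 at 1.5-fold and 0 at 3-fold, and higher genes were 5 where both arrays had to be above background and 15 at 1.5-fold. The chondroitin list's median was 0.10 after loess. Under normexp Mmp9, Mmp13, Nepn and Egfr were no longer past 2-fold. Of 352 counts and medians of single lists under the alternatives, 298 stayed close (counts within 1.5 times, medians within the technical error) and 54 moved further. Depth is set by 1 spot per member probe and array. The differences of Acan, Bgn, Fmod and Lum, between 1.0 and 1.5 times their scanner errors, were not resolved from 0. Those of Dcn, Ogn, Aspn and the 2 measured Vcan probes were between 2.9 and 12 times their errors. They pass the spot error only, since the spread between cultures was not measured.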
